A study of Mus musculus with 9 samples.

Results

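The genes described here are the 46 ligands, receptors, SMADs, extracellular antagonists and ID readouts of TGF-β and bone morphogenetic protein (BMP) signaling, out of the 55471 genes in the deposited files. They were taken by gene symbol: 6 TGF-β ligands and latent TGF-β binding proteins (LTBPs), 3 activin and inhibin subunits, 9 BMP and GDF ligands, 6 type I receptors, 3 type II receptors, 1 co-receptor, 8 SMADs, 7 extracellular antagonists and 3 ID genes. All 46 were found in the files, and 45 had enough counts to be tested. RNA-seq was conducted on 9 cultures of primary mouse articular chondrocytes, the matrix-producing cells of joint cartilage. 3 cultures were infected with a control adenovirus (Ad-Control), 3 with one carrying OSCAR, a collagen-binding receptor (Ad-OSCAR), and 3 with Ad-OSCAR followed by 10 µM 5-ASA (5-aminosalicylic acid, a drug for inflammatory bowel disease). The labels give pups of postnatal day 5, 3 days of culture, infection at 400 MOI for 2 h, and 36 h before 5-ASA. The study's methods give 2 days of culture, 800 MOI of Ad-OSCAR for 2 h and 24 h more with or without 5-ASA, and pups of ICR or C57BL/6J mice, while its reporting summary names ICR pups of both sexes for primary chondrocytes in general. According to those methods, all plates were coated with COLpep, a collagen peptide that binds OSCAR. No Ad-Control culture received 5-ASA, so the effect of the drug was measured only in OSCAR-overexpressing cells. Neither labels nor methods say whether the 3 cultures of a group came from separate animals, and the p-values measure the spread between these cultures, which may be technical.

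TGF-β, activins, BMPs and GDFs are secreted dimers that join a pair of type I and a pair of type II serine/threonine kinase receptors on the cell surface. The type I receptor then phosphorylates receptor SMADs (SMAD2 and SMAD3 for TGF-β and activins, SMAD1, SMAD5 and SMAD9 for BMPs), which enter the nucleus with SMAD4. TGF-β is secreted in a latent complex held in the matrix by proteins such as LTBP1, activins are bound by follistatin, and BMPs are bound by gremlin, noggin and chordin. In cartilage, TGF-β and BMP signaling guide chondrocyte differentiation and matrix production, and GDF5 marks the cells that form joints.

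The windows before the start sites of 4 genes that the results turn on are shown first. *Inhba* and *Grem1* had the largest gains in TPM in OSCAR-overexpressing cells, and *Tgfbr2* and *Smad9* are the receptor and the SMAD with the largest falls by fold. Each window is the 250 bases upstream of the RefSeq start in GRCm38.p6, written 5′ to 3′ on the gene's strand, at chr13:16011601-16011850 (plus strand) for *Inhba*, chr2:113758649-113758898 (minus) for *Grem1*, chr9:116175364-116175613 (minus) for *Tgfbr2* and chr3:54755332-54755581 (plus) for *Smad9*. Capitals mark a match to 1 of 4 motifs searched on both strands, namely the GC-rich SMAD motif GGCGCC (its own reverse complement), the SMAD-type CAGACA, the CCAAT box CCAAT and the TATA box TATAAA.
Inhba: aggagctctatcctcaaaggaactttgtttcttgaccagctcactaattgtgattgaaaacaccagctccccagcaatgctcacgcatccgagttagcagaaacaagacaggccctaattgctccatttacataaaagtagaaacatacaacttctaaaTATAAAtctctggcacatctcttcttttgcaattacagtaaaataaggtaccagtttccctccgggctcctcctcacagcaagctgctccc
Grem1: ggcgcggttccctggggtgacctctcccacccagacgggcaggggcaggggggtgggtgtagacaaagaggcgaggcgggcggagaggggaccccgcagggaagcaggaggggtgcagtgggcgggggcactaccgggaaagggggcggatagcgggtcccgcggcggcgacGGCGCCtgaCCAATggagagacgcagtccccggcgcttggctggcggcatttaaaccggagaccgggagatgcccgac
Tgfbr2: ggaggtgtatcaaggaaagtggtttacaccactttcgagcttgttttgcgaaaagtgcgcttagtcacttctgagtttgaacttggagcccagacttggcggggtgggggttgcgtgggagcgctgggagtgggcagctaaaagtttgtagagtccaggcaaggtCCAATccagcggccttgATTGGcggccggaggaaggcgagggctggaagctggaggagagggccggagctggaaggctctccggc
Smad9: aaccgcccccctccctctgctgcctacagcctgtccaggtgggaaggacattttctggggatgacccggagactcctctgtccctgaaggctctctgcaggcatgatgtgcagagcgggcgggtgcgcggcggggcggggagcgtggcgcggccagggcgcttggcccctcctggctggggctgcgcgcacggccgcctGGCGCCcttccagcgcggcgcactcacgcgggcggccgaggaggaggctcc

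The *Inhba* window, with a G+C content of 43.2%, holds a TATA box, and those of *Grem1* (72.00%) and *Smad9* (73.2%), which moved in opposite directions, each hold GGCGCC. The *Tgfbr2* window (58.4%) holds 2 CCAAT boxes, 1 on each strand, and *Grem1* holds 1. No marked match overlaps another. Windows of this kind were at hand for 30 of the 46 genes. GGCGCC was found in 8 of the 30 windows and in 10.8% of the windows of 27025 genes, CAGACA in 6 of the 30 windows and in 19.3% of the windows of 27025 genes, CCAAT in 11 of the 30 windows and in 37.5% of the windows of 27025 genes, and TATAAA in 4 of the 30 windows and in 14.3% of the windows of 27025 genes. These matches describe letters and show no binding.

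The levels of the 46 genes in Ad-Control cells differed widely. Levels between genes are compared as TPM (transcripts scaled to the library, which takes gene length into account), and a gene is compared between groups in CPM (counts scaled to the TMM-adjusted library size). *Id3*, a BMP-responsive inhibitor of DNA binding, had the highest level of the 46 in Ad-Control cells, at 284 ± 6.39 TPM (SD, n = 3). It was followed by the latent TGF-β binding proteins *Ltbp2* (200.3 ± 11.02 TPM) and *Ltbp3* (163 ± 32.8 TPM), the type II receptor *Tgfbr2* (156 ± 4.69 TPM) and the ligand *Bmp4* (152 ± 7.18 TPM). Among these 5, the values of *Ltbp2*, *Ltbp3*, *Tgfbr2* and *Bmp4* lay within 2 SD of their neighbor in the order. In Ad-OSCAR cells, *Grem1* moved from place 6 to place 1 at 699 ± 31.4 TPM and *Inhba* from place 14 to place 2 at 404 ± 44.6 TPM, while *Id3* dropped to place 4 and *Tgfbr2* to place 12. The sum over all 46 genes was 2083 ± 49.3 TPM in Ad-Control cells, 2816 ± 68.5 TPM in Ad-OSCAR cells and 2685 ± 95.9 TPM with 5-ASA. *Grem1* and *Inhba* together made up 7.65 ± 0.495% of that sum in Ad-Control cells, 39.2 ± 1.91% in Ad-OSCAR cells and 32.9 ± 0.668% with 5-ASA. Without these genes, the sum was 1924 ± 51.4, 1712 ± 34.8 and 1802 ± 68.9 TPM.

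**Figure D1:**
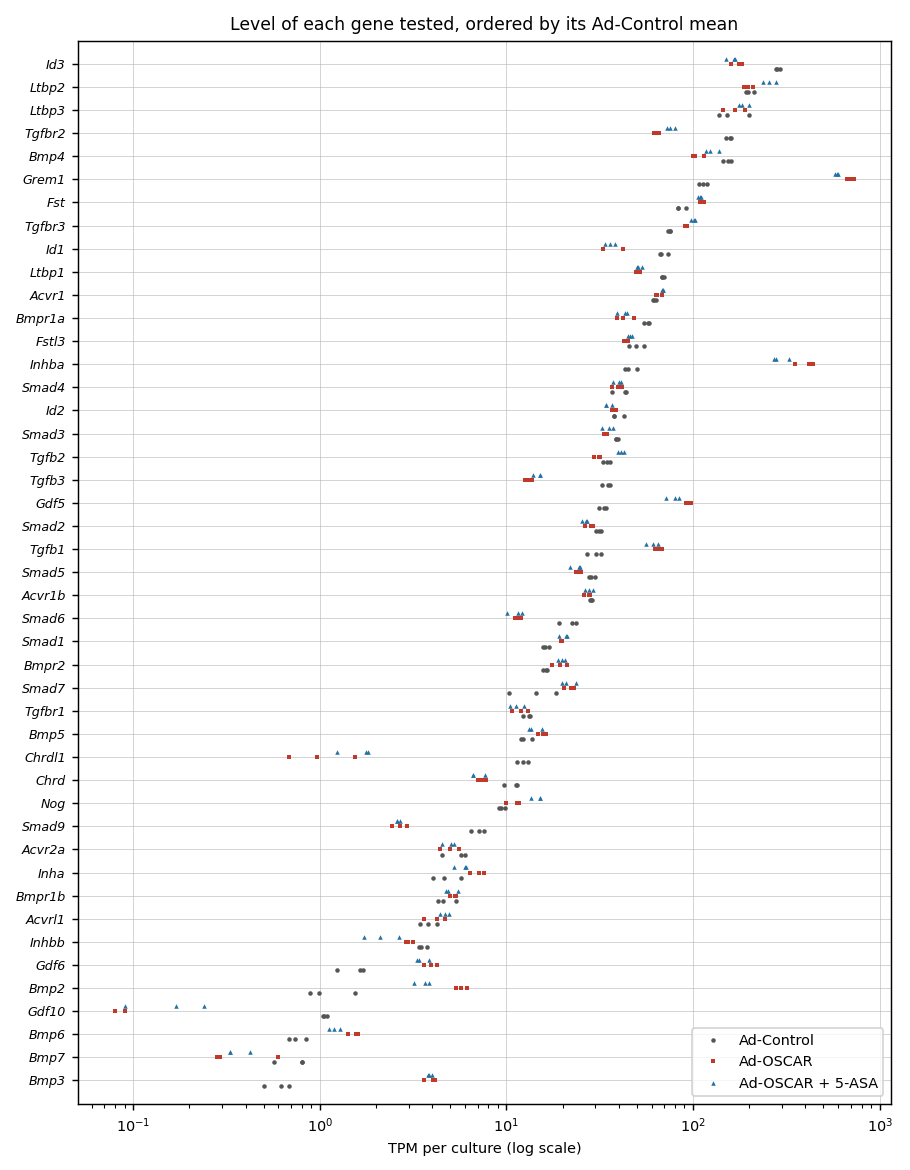
TPM on a log scale (x axis) of the 45 genes tested (y axis), with 1 point per culture for Ad-Control (circles), Ad-OSCAR (squares) and Ad-OSCAR + 5-ASA (triangles), 3 cultures each, and genes ordered by their Ad-Control mean. Inhba and Grem1 stand far to the right of their Ad-Control points in all 6 Ad-OSCAR cultures, and Gdf10 and Chrdl1 far to the left.

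OSCAR overexpression changed 31 of the 45 genes, of which 16 rose and 15 fell (edgeR quasi-likelihood test, adjusted p below 0.05). The largest rises were those of *Inhba*, *Bmp3*, *Grem1* and *Bmp2*, and the largest falls were those of *Gdf10* and *Chrdl1*. These counts lie near the background, since 65.0% of the 15362 genes tested were called in this comparison, 32.7% higher and 32.2% lower. A change of more than 2-fold was called for 13 of the 45 genes (7 higher and 6 lower), against 17.6% of all genes tested (8.23% higher and 9.36% lower). With the study's own limit for OSCAR (a log2 fold change beyond 1.5), 6 were called, against 9.96% of all genes. The 3 Ad-OSCAR cultures did not overlap the 3 Ad-Control cultures for 35 of the 45 genes, compared to 69.0% of all genes. The median log2 fold change was -0.04 over the 45 genes and 0.02 over all genes tested.

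**Figure D2:**
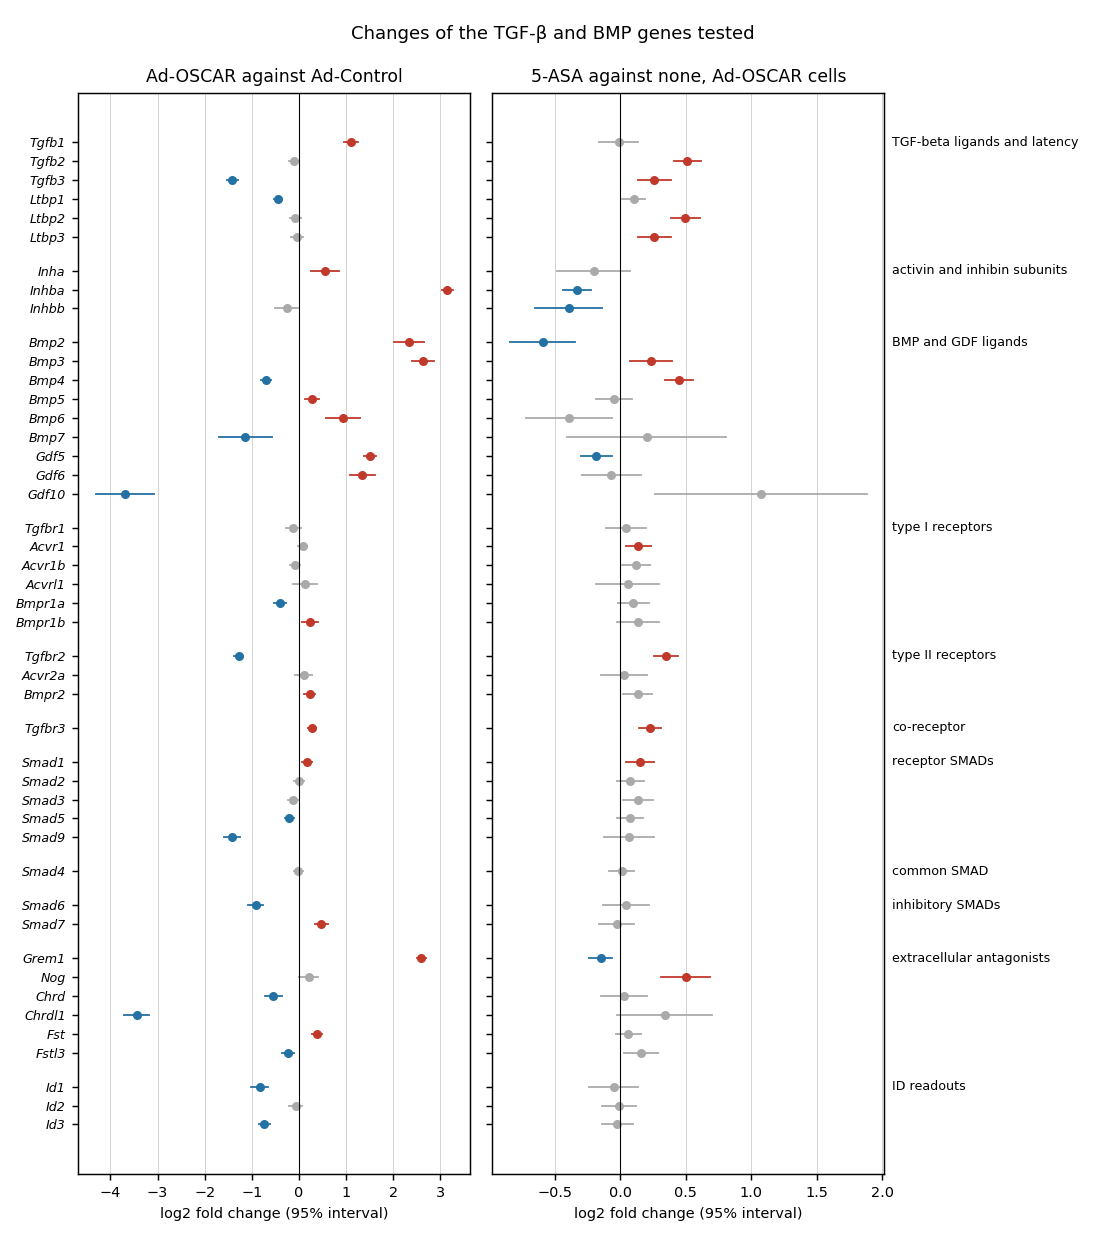
Log2 fold change (x axis) with its 95% interval from edgeR for the 45 genes tested (y axis), grouped by role, for OSCAR overexpression (left) and for 5-ASA in Ad-OSCAR cells (right). Red points are genes called higher and blue points genes called lower at an adjusted p below 0.05, gray points are not called, and the x axes of the panels differ. The left panel reaches from -3.69 for Gdf10 to 3.14 for Inhba, while all called changes in the right panel lie between -0.59 and 0.51.

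Of the TGF-β isoforms, *Tgfb1* rose and *Tgfb3* fell with OSCAR overexpression. *Tgfb1* (ENSMUSG00000002603.15, chromosome 7, 25687002 to 25705077, plus strand) had 35.4, 30.3 and 38.8 CPM in the 3 Ad-Control cultures and 74.3, 79.3 and 70.4 CPM in the 3 Ad-OSCAR cultures. All Ad-OSCAR cultures were above all Ad-Control cultures, and the level was 2.15-fold higher (95% interval 1.93 to 2.4, adjusted p = 2.78e-10). *Tgfb3* (ENSMUSG00000021253.7, chromosome 12, 86056745 to 86079041, minus strand) had 69.5, 62.5 and 67.9 CPM in Ad-Control and 25.9, 24.4 and 24.4 CPM in Ad-OSCAR cultures. Here the order was turned around without overlap, and the level was 2.67-fold lower (interval 2.46 to 2.9, adjusted p = 1.38e-13). *Tgfb2*, the third isoform, had 94.3, 85.9 and 88.5 CPM and 80.3, 85.3 and 85.4 CPM, a log2 fold change of -0.10 (SE 0.05) that did not pass the test (adjusted p = 0.0961). Of the LTBPs, which are matrix proteins found with fibrillin fibers, *Ltbp1* fell 1.37-fold, from 196 ± 3.78 to 143 ± 1.42 CPM (adjusted p = 3.05e-08). The log2 fold changes of *Ltbp2* (-0.08 (SE 0.05)) and *Ltbp3* (-0.04 (SE 0.06)) did not pass.

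The isoforms therefore made up different shares of the TGF-β transcripts. *Tgfb1* held 30.2% ± 1.25 (SD, n = 3) of the summed TPM of the 3 isoforms in Ad-Control cells, 59.9% ± 1.23 in Ad-OSCAR cells and 51.96% ± 1.37 with 5-ASA. The share of *Tgfb2* was 34.97% ± 0.846, 28.2% ± 1.15 and 35.4% ± 1.21 in the same order, and that of *Tgfb3* was 34.8% ± 0.408, 11.97% ± 0.733 and 12.6% ± 0.17. With estimated counts in place of TPM, the difference between Ad-OSCAR and Ad-Control cells in the share of *Tgfb2* was -1.24 in place of -6.80 percentage points, and that of *Tgfb3* with 5-ASA was -0.22 in place of 0.66. The near-equal mixture of Ad-Control cells thus had *Tgfb1* as its largest part in every Ad-OSCAR culture. Groups of 3 allow no exact two-sided permutation p below 0.1, and the 3 shares gave that value for Ad-OSCAR against Ad-Control (adjusted p = 0.164 over the 18 shares tested, exact permutation test). Among the BMP and GDF ligands, *Bmp4* held 74.8 ± 0.149% of the summed TPM in Ad-Control, 45.5 ± 2.47% in Ad-OSCAR and 54.5 ± 1.9% in 5-ASA-treated cells, and *Gdf5* held 16.2 ± 0.135%, 41.1 ± 2.41% and 33.9 ± 1.76%. The ligand pair *Bmp4* and *Gdf5* was picked after its values were seen and was not tested.

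**Figure D3:**
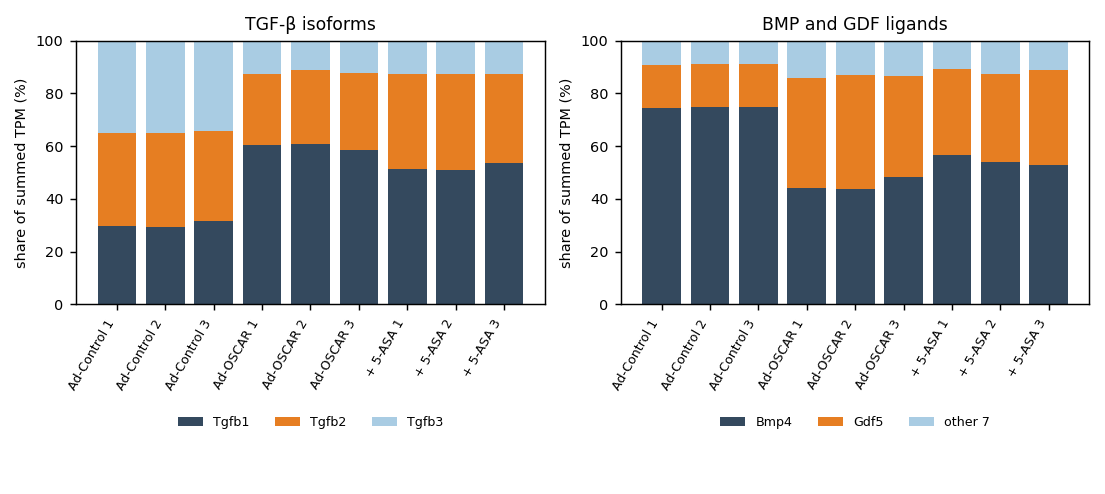
Stacked bars of the share (%, y axis) of the summed TPM taken by each TGF-β isoform (left) and by Bmp4, Gdf5 and the other 7 BMP and GDF ligands (right), with 1 bar per culture. From Ad-Control to Ad-OSCAR cultures the Tgfb1 part grows from a mean of 30.2% to 59.9%, and the Bmp4 part shrinks while the Gdf5 part grows.

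Activin A is a dimer of the inhibin βA subunit, and its gene *Inhba* (ENSMUSG00000041324.14, chromosome 13, 16011851 to 16031621, plus strand) had the largest rise of the 45 genes. *Inhba* had 132, 145 and 139.8 CPM in the Ad-Control cultures and 1207, 1148 and 1329 CPM in the Ad-OSCAR cultures. The lowest Ad-OSCAR culture was far above the highest Ad-Control culture, and the level was 8.83-fold higher (interval 8.15 to 9.58, adjusted p = 2.06e-18). *Inha*, the inhibin α subunit that turns an activin into an inhibin, rose 1.46-fold from 3.73 ± 0.664 to 5.41 ± 0.504 CPM (adjusted p = 0.00249). *Inhbb*, the βB subunit, had 8.68, 9.16 and 8.4 CPM and 7.6, 7.18 and 7.13 CPM and a log2 fold change of -0.26 (SE 0.12) (adjusted p = 0.0576). It was called lower in 5 of 19 other settings. *Inhba* made up 84.6% ± 1.77 of the summed TPM of the 3 subunits in Ad-Control and 97.5% ± 0.332 in Ad-OSCAR cells, a difference of 12.98 percentage points that was 7.22 with estimated counts in place of TPM.

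All 9 BMP and GDF ligands changed with OSCAR overexpression, of which 6 rose and 3 fell, where 65.0% of all genes tested were called. *Bmp2* (ENSMUSG00000027358.6, chromosome 2, 133552159 to 133562885, plus strand), an inducer of cartilage and bone, had 2.03, 1.81 and 3.17 CPM in Ad-Control and 12.2, 11.7 and 10.6 CPM in Ad-OSCAR cultures. It was 5.03-fold higher (interval 4.04 to 6.25, adjusted p = 1.33e-10), with no overlap. *Bmp3*, which opposes other BMPs, went from 2.36, 2.1 and 1.96 CPM to 12.7, 13.5 and 13.6 CPM, which is 6.18-fold higher (adjusted p = 2.19e-13). The joint-forming ligand *Gdf5* (ENSMUSG00000038259.4, chromosome 2, 155941023 to 155945367, minus strand) had 40.4, 44.1 and 43.4 CPM and then 121, 127 and 114 CPM, a rise of 2.83-fold (interval 2.59 to 3.09, adjusted p = 1.65e-13). *Gdf6*, its close relative, had 3.35, 2.51 and 3.49 CPM and 8.35, 7.38 and 7.75 CPM and was 2.54-fold higher (adjusted p = 3.69e-08). Each of these 4 ligands was higher in all 3 Ad-OSCAR cultures than in any Ad-Control culture. *Bmp5* (log2 fold change 0.27 (SE 0.07)) and *Bmp6* (0.94 (SE 0.17)) rose less. The exons of *Bmp6* overlap *Txndc5* on the other strand, which had 6536 to 15045 counts against 29 to 86 for *Bmp6*, and whether reads were counted by strand is not given in the sources used here. *Gdf5* likewise overlaps *Gm15557* (5 to 73 counts against 821 to 3569).

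The 3 ligands that fell were *Gdf10*, *Bmp7* and *Bmp4*. *Gdf10* (ENSMUSG00000021943.7, chromosome 14, 33923587 to 33937983, plus strand), also known as BMP3B, had 3.21, 3.29 and 3.17 CPM in the Ad-Control cultures and 0.237, 0.246 and 0.255 CPM in the Ad-OSCAR cultures. It was 12.9-fold lower (interval 8.38 to 19.8, adjusted p = 2.98e-09), which rests on 6 or 7 counts per Ad-OSCAR culture. *Bmp4* (ENSMUSG00000021835.15, chromosome 14, 46383520 to 46390669, minus strand), which had the highest ligand level of the 9 in Ad-Control cells, fell 1.63-fold from 114, 108 and 113 CPM to 65.1, 72.00 and 67.9 CPM (adjusted p = 7.95e-10). *Bmp7* was 2.2-fold lower, with 1.53 ± 0.291 and 0.682 ± 0.145 CPM (adjusted p = 0.00122). For *Gdf10* and *Bmp4* the groups were far apart, while *Bmp7* was near 1 CPM in both.

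**Figure D4:**
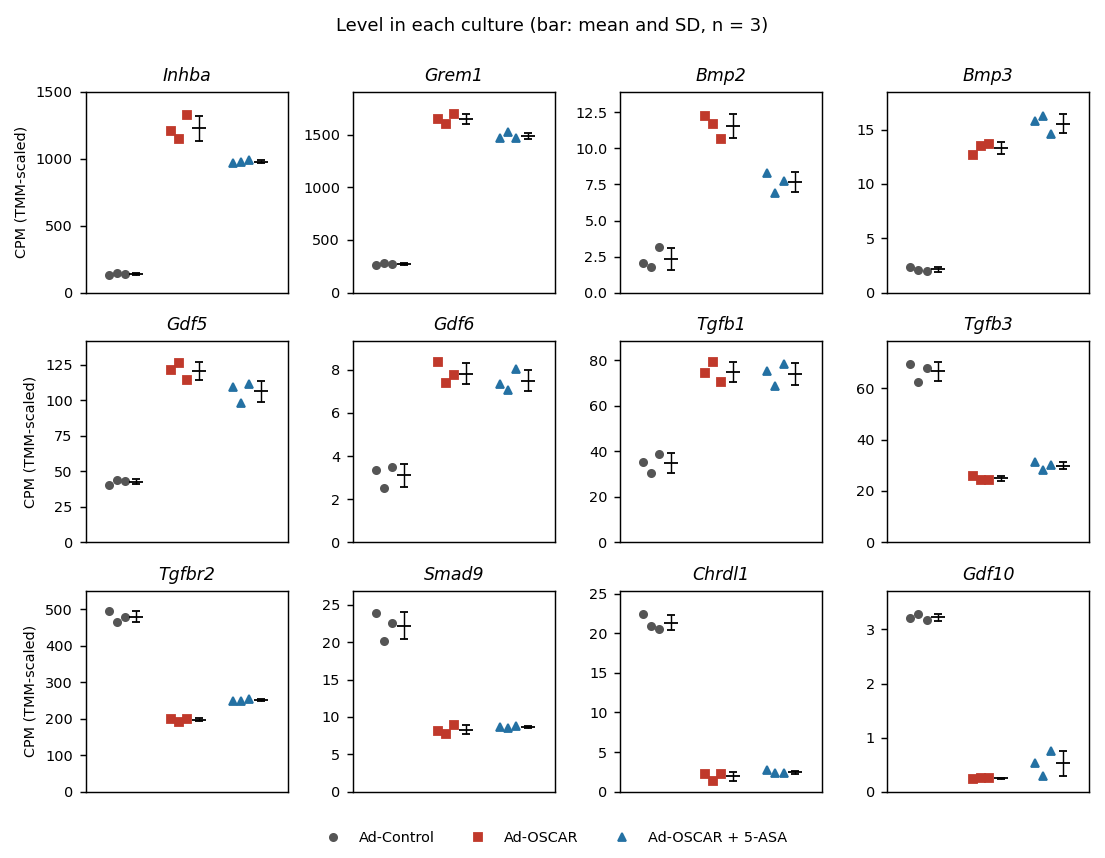
CPM (y axis, from 0, its own scale in each panel) in each of the 3 Ad-Control (circles), 3 Ad-OSCAR (squares) and 3 Ad-OSCAR + 5-ASA cultures (triangles) for the 12 genes that changed more than 2-fold with OSCAR at a mean of at least 1 CPM, with bars for the mean ± SD. In all 12 panels the 3 Ad-OSCAR cultures lie apart from the 3 Ad-Control cultures, and the 5-ASA-treated mean lies nearer to the Ad-OSCAR than to the Ad-Control mean.

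The receptors changed little, apart from *Tgfbr2*. *Tgfbr2* (ENSMUSG00000032440.13, chromosome 9, 116084293 to 116175360, minus strand), the type II receptor that binds TGF-β, had 494, 464 and 478 CPM in the Ad-Control and 199.9, 192 and 199 CPM in the Ad-OSCAR cultures. The 2 groups were well apart, and the level was 2.43-fold lower (interval 2.28 to 2.59, adjusted p = 9.87e-15). Its signaling partner *Tgfbr1*, the type I receptor also called ALK5, had a log2 fold change of -0.12 (SE 0.07) and did not pass (adjusted p = 0.154). Of the other type I receptors, *Bmpr1a* fell 1.32-fold and *Bmpr1b* rose 1.17-fold, and *Acvr1*, *Acvr1b* and *Acvrl1* did not pass, with log2 fold changes between -0.08 and 0.12. *Bmpr1b* lost its call in 5 of 19 other settings. *Bmpr2*, the type II receptor for BMPs, rose 1.17-fold, and *Acvr2a*, which binds activins and BMPs, had 0.10 (SE 0.09). *Tgfbr3* (betaglycan), a co-receptor that presents TGF-β2 and inhibin, rose 1.21-fold, from 261, 265 and 269 CPM to 319.7, 322 and 318 CPM (adjusted p = 8.33e-06).

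Of the receptor SMADs, *Smad9* changed by far the most. *Smad9* (ENSMUSG00000027796.2, chromosome 3, 54755582 to 54801257, plus strand), a SMAD of the BMP branch, had 23.8, 20.2 and 22.6 CPM and 8.18, 7.71 and 8.91 CPM and was 2.68-fold lower (interval 2.37 to 3.03, adjusted p = 3.67e-11). The other BMP SMADs moved by less than 1.5-fold: *Smad1* rose 1.13-fold, from 27.7, 27.4 and 29.1 CPM to 31.6, 31.9 and 31.2 CPM, and *Smad5* fell 1.15-fold. *Smad2*, *Smad3* and the common *Smad4* did not pass the test, with log2 fold changes of -0.01 (SE 0.05), -0.12 (SE 0.05) and -0.02 (SE 0.05). *Smad3* was called lower in 6 of 19 other settings and *Smad2* in 2. The inhibitory SMADs, which are themselves induced by the pathway and switch it off, changed in opposite directions. *Smad6*, which mainly blocks BMP signals, fell 1.89-fold from 36.6 ± 4.12 to 19.2 ± 0.851 CPM (adjusted p = 1.05e-08), and *Smad7*, which blocks TGF-β and BMP signals, rose 1.39-fold from 24.9 ± 2.18 to 34.5 ± 1.92 CPM (adjusted p = 4.51e-06).

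Of the extracellular antagonists, *Grem1* and *Fst* rose, and *Chrdl1*, *Chrd* and *Fstl3* fell. *Grem1* (ENSMUSG00000074934.3, chromosome 2, 113746164 to 113758646, minus strand) encodes gremlin 1, which binds BMP2, BMP4 and BMP7. It had 261, 284 and 273 CPM in the Ad-Control cultures and 1647, 1603 and 1694 CPM in the Ad-OSCAR cultures. Every Ad-OSCAR culture was far above every Ad-Control culture, and the level was 6.05-fold higher (interval 5.66 to 6.45, adjusted p = 1.57e-18). *Chrdl1* (ENSMUSG00000031283.16, chromosome X, 143285674 to 143394262, minus strand), a chordin-like BMP4 antagonist, went the other way from 22.4, 20.96 and 20.6 CPM to 2.21, 1.31 and 2.26 CPM, 10.9-fold lower (interval 9.04 to 13.2, adjusted p = 5.54e-14). *Fst* (follistatin, the activin antagonist) rose 1.3-fold, and its relative *Fstl3* fell 1.18-fold. *Chrd* fell 1.46-fold, and *Nog* had 8.54, 8.3 and 9.04 CPM and 10.4, 10.5 and 8.8 CPM, a log2 fold change of 0.20 (SE 0.10) (adjusted p = 0.078). *Chrdl2* was the gene not tested, with 7, 3 and 6 counts in the Ad-Control cultures, 0, 1 and 0 in the Ad-OSCAR cultures and 1, 1 and 0 with 5-ASA. Of the ID genes, which BMP SMADs induce directly, *Id1* fell 1.78-fold from 31.8 ± 1.64 to 17.9 ± 2.69 CPM (adjusted p = 9.37e-08) and *Id3* fell 1.66-fold from 181 ± 3.84 to 109 ± 8.34 CPM (adjusted p = 1.65e-09). *Id2* had a log2 fold change of -0.07 (SE 0.06) and did not pass.

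A further 71 genes of the pathway outside the 46 were read beside them, of which 50 passed the filter on low counts. In Ad-OSCAR cells, 17 of the 50 rose and 22 fell, against the same background of 65.0% called. Of 12 known transcriptional targets, 2 rose and 7 fell. Those that rose were *Skil* (2.39 (SE 0.06)) and *Pmepa1* (1.79 (SE 0.07)), both feedback inhibitors of SMAD signaling. Those that fell included the matrix protein gene *Tgfbi* (-3.15 (SE 0.06)) and *Ccn2* (-1.71 (SE 0.05)), which encodes connective tissue growth factor, as well as *Id4*, *Msx1*, *Dlx5* and the decoy receptor gene *Bambi* (-1.75 (SE 0.15)). Of 22 other extracellular regulators, 19 were tested, and 6 rose and 9 fell. Fibrillin 2 (*Fbn2*), to which latent complexes bind, fell 4.33-fold, and *Thbs1*, whose product thrombospondin 1 activates latent TGF-β, fell 1.95-fold. Of 14 intracellular regulators, 8 rose and 4 fell, and *Tgif1*, a SMAD co-repressor, rose 3.41-fold.

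The cells' other features moved in the same comparison. All 10 chondrocyte markers read (*Acan* and *Col2a1* among them) fell, and their summed level was 15099 to 17189 TPM in the Ad-Control, 888 to 1022 TPM in the Ad-OSCAR and 984 to 1170 TPM in the 5-ASA-treated cultures. The 6 synovial and tendon fibroblast markers summed to 264 to 267, 396 to 419 and 324 to 348 TPM, although 4 of the 5 tested fell. The 6 macrophage and leukocyte markers summed to 15.6 to 19.1, 41.8 to 42.4 and 30.0 to 33.1 TPM, with 4 of them (*Ptprc*, *Adgre1*, *Csf1r* and *Mrc1*) under 1 TPM in every group. The 6 osteoblast markers summed to 49.5 to 56.7, 13.1 to 20.1 and 23.2 to 24.8 TPM. Endothelial, muscle, fat and red cell markers summed to at most 2.31 TPM in any culture. In bulk RNA, fewer cells of a type and less RNA per cell cannot be told apart, and the part of these shifts in the changes of the 45 genes was not tested.

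With 5-ASA, 16 of the 45 genes changed in Ad-OSCAR cells, of which 11 rose and 5 fell. The genes that rose were *Tgfb2*, *Tgfb3*, *Ltbp2*, *Ltbp3*, *Bmp3*, *Bmp4*, *Acvr1*, *Tgfbr2*, *Tgfbr3*, *Smad1* and *Nog*, and those that fell were *Inhba*, *Inhbb*, *Bmp2*, *Gdf5* and *Grem1*. In this comparison 17.8% of all genes tested were called, 10.4% higher and 7.38% lower, and the cultures did not overlap for 22 of the 45 genes against 33.8% of all genes. The changes were small: 0 of the 45 genes passed with more than a 2-fold change (edgeR, against 0.833% of all genes), and 1, *Gdf10*, did so at an unadjusted p below 0.05, in edgeR and in DESeq2 alike. The median log2 fold change was 0.07 over the 45 genes and -0.0044 over all genes tested. Of the 16 calls, 7 were kept in every other setting tried, namely the rises of *Tgfb2*, *Ltbp2*, *Bmp4*, *Tgfbr2* and *Nog* and the falls of *Inhba* and *Bmp2*. The count of genes that fell was 2 without Ad-OSCAR replicate 1 or without 5-ASA replicate 1, and 3 without Ad-OSCAR replicate 2 or 3 or without 5-ASA replicate 2. The count of genes that rose was 5 when TPM were tested in place of counts. *Oscar* itself had 0.174 ± 0.0458 CPM in Ad-Control, 6665 ± 397 CPM in Ad-OSCAR and 3399 ± 404 CPM in 5-ASA-treated cells, and the part of that lower level in the values with 5-ASA was not tested.

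Of the TGF-β ligands and LTBPs, 4 of 6 rose with 5-ASA, where 10.4% of all genes tested did. *Tgfb2* (ENSMUSG00000039239.14, chromosome 1, 186622792 to 186705989, minus strand) had 123, 116 and 119 CPM in the 5-ASA-treated cultures, all above the untreated Ad-OSCAR cultures given before, and was 1.42-fold higher (interval 1.32 to 1.53, adjusted p = 1.06e-06). *Ltbp2* (ENSMUSG00000002020.15, chromosome 12, 84783212 to 84876532, minus strand) had 757, 744 and 844 CPM in Ad-Control, 745, 777 and 700.1 CPM in Ad-OSCAR and 1059, 987 and 1088 CPM in 5-ASA-treated cultures. The treated cultures were above the other 6, and the level was 1.41-fold higher than in Ad-OSCAR cells (interval 1.3 to 1.53, adjusted p = 3.96e-06). *Ltbp3* had 289, 263 and 306 CPM, 278, 292 and 264 CPM and 342, 308 and 348 CPM in the same order, 1.2-fold higher with 5-ASA (adjusted p = 0.00483). The limit on strand given for *Bmp6* also holds for *Ltbp3*. *Tgfb3* had 31.2, 28.3 and 30.1 CPM and was 1.2-fold higher (adjusted p = 0.00479). The calls of *Ltbp3* and *Tgfb3* were lost when TPM were tested. The log2 fold change of *Tgfb1* was -0.01 (SE 0.07), with an interval from -0.16 to 0.13.

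Among the other ligands, *Bmp4* rose and *Inhba*, *Inhbb*, *Bmp2* and *Gdf5* fell with 5-ASA. *Inhba* had 966, 979 and 989 CPM in the treated cultures. These were all below the lowest untreated Ad-OSCAR culture and far above Ad-Control, and the level was 1.26-fold lower than without the drug (interval 1.17 to 1.35, adjusted p = 0.000147). *Inhbb* had 5.5, 4.49 and 6.72 CPM, 1.32-fold lower (adjusted p = 0.0299), and its call was lost in 7 of 19 other settings, which were both tests of TPM and the fits without any 1 of the 3 Ad-OSCAR cultures or without 5-ASA replicate 1 or 2. *Bmp2* had 8.31, 6.93 and 7.71 CPM, which lay between the Ad-Control and the Ad-OSCAR cultures without overlap, and was 1.51-fold lower (interval 1.27 to 1.79, adjusted p = 0.00161). *Bmp4* also lay in between, at 97.6, 89.96 and 91.5 CPM, and was 1.36-fold higher (interval 1.26 to 1.47, adjusted p = 7.49e-06). *Gdf5* had 109, 97.8 and 112 CPM and was 1.14-fold lower (adjusted p = 0.0308), and its call was lost without Ad-OSCAR replicate 1 or 2 and without 5-ASA replicate 1 or 2. *Bmp3* had 15.8, 16.2 and 14.6 CPM, 1.17-fold higher (adjusted p = 0.0444), although its TPM changed by -0.015 on the log2(TPM + 0.1) scale and its call was kept in 8 of 19 other settings. For *Gdf10* the treated cultures had 0.539, 0.292 and 0.751 CPM, a log2 fold change of 1.07 (SE 0.38) that did not pass (adjusted p = 0.0622). *Gdf6* and *Bmp5* did not pass, and the 95% intervals of their log2 fold changes were -0.30 to 0.16 and -0.19 to 0.09.

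Of the receptors, *Tgfbr2*, *Tgfbr3* and *Acvr1* rose with 5-ASA. *Tgfbr2* had 249, 249 and 254 CPM in the treated cultures, above the Ad-OSCAR and below the Ad-Control cultures, and was 1.27-fold higher than without the drug (interval 1.2 to 1.35, adjusted p = 1.28e-05). *Tgfbr3* had 368, 377 and 376 CPM and was 1.17-fold higher (adjusted p = 0.000545), so that its 3 groups ran upward from Ad-Control to 5-ASA without overlap, but the call was lost when TPM were tested. *Acvr1* (ALK2, a BMP type I receptor) had 90.9, 87.6 and 86.3 CPM in Ad-Control, 94.5, 93.2 and 92.2 CPM in Ad-OSCAR and 104, 104 and 99.8 CPM in treated cultures, a rise of 1.1-fold with 5-ASA (adjusted p = 0.0394). Of the SMADs only *Smad1* was called, at 35.9, 35.2 and 33.99 CPM and 1.11-fold higher (adjusted p = 0.0441). The calls of *Acvr1* and *Smad1* were lost in 12 and 14 of 19 other settings, among them the fits without any 1 of the 3 Ad-OSCAR cultures and without 5-ASA replicate 1 or 2. *Smad6*, *Smad7* and *Smad9* did not pass, with log2 fold changes of 0.04 (SE 0.08), -0.03 (SE 0.06) and 0.06 (SE 0.09).

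Of the antagonists, *Nog* rose and *Grem1* fell with 5-ASA. *Nog* (noggin, ENSMUSG00000048616.4, chromosome 11, 89300638 to 89302332, minus strand) had 14.7, 14.6 and 12.6 CPM in the treated cultures, all above the other 6 cultures, and was 1.41-fold higher than in untreated Ad-OSCAR cells (interval 1.24 to 1.61, adjusted p = 0.00068). *Grem1* had 1468, 1521 and 1465 CPM and was 1.11-fold lower (interval 1.04 to 1.18, adjusted p = 0.0171), and its call was lost without Ad-OSCAR replicate 1 or 3 or without 5-ASA replicate 1. *Chrdl1*, *Chrd*, *Fst* and *Fstl3* were not called, with log2 fold changes between 0.03 and 0.34. *Id1*, *Id2* and *Id3* did not pass, with log2 fold changes of -0.05 (SE 0.09), -0.01 (SE 0.06) and -0.02 (SE 0.06). Of the 50 further pathway genes tested, 19 rose and 3 fell with 5-ASA, against 17.8% of all genes. The 19 extracellular regulators among them held 11 that rose, such as *Fbn2* (0.79 (SE 0.05)), *Thbs1* (0.55 (SE 0.04)) and the BMP and Wnt antagonist gene *Sostdc1* (1.17 (SE 0.26)).

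The 5-ASA-treated cells differed from Ad-Control cells in 36 of the 45 genes, of which 21 were higher and 15 lower, with 63.2% of all genes called (31.4% higher and 31.8% lower). A difference of more than 2-fold was called for 11, against 15.9% of all genes. With the study's limits for 5-ASA, which its methods give for treated cells against Ad-Control (1.5-fold, unadjusted p below 0.05), 18 of the 45 were called, 8 higher and 10 lower, against 29.9% of all genes (14.6% higher and 15.3% lower). This comparison shares the Ad-Control cultures with the first and the treated cultures with the second, so the values are set side by side only. For *Inhba* the log2 fold change against Ad-Control was 3.14 without and 2.81 with 5-ASA, for *Grem1* 2.60 and 2.45, and for *Bmp2* 2.33 and 1.74. *Tgfbr2* stood at -1.28 and -0.93, *Bmp4* at -0.71 and -0.26, and *Tgfb3* at -1.42 and -1.16. Each of these 6 genes was called in both comparisons. *Tgfb2* (-0.10 and 0.41), *Ltbp2* (-0.08 and 0.42) and *Nog* (0.20 and 0.70), which had not been called with OSCAR alone, were higher than in Ad-Control cells after 5-ASA (adjusted p = 9.18e-07, 2.11e-06 and 3.67e-06).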

How the data were processed

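RNA from 9 cultures was sequenced as 2 × 100 base reads from stranded mRNA libraries. According to the study's methods and processing notes, BBDuk was used for trimming, STAR 2.7.1a for alignment to GRCm38 and RSEM 1.3.1 for quantification. RSEM's estimated counts, as deposited by the authors, carry no scaling for library size and can be fractional. The TPM in the authors' deposited files were made by RSEM from the same estimates, with the effective length of each gene. Symbols and coordinates are those of GENCODE M21 (GRCm38), and promoter windows are from RefSeq.

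The estimated counts were rounded and summed to between 19733431 and 28192725 per culture. These totals limit precision for genes near 1 CPM. Differential expression was tested on all 15362 genes that passed filterByExpr, in 1 joint model of the 9 cultures with a term for group alone (edgeR 4.0.16 in R 4.3.3, TMM, quasi-likelihood F test without robust estimation, biological coefficient of variation 5.11%), and p-values were adjusted by Benjamini-Hochberg over all of them. SEs were derived from the log2 fold change and its F statistic. Shares of summed TPM were compared by two-sided exact permutation tests. No pair of replicates agreed within sampling noise (chi-square per degree of freedom 4.25 to 8.10). The same-numbered cultures of different groups did not deviate together (correlations -0.0724 to 0.0402). The tests were checked on simulated counts in which a small part of the genes was changed, in the Ad-OSCAR group alone. That check does not cover a comparison in which 65.0% of the genes tested were called.

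Values of some genes outside the 46 are not reported here. The members and gene lists were chosen with earlier results of these data known. Members called past 2-fold with OSCAR, or called with 5-ASA, at a mean of at least 1 CPM (21 genes) are given in every culture, and the others by group or as examples of their role. Alternatives were DESeq2 1.42.0, RLE and upper quartile scaling, no filter, a minimum of 10 counts throughout, a fit of 2 groups at a time, robust estimation, limma 3.58.1 on log2(TPM + 0.1) and log2(TPM + 1), the replicate number as a block, and leaving out each culture. Tables were made with Python 3.11.15, numpy 2.4.6, pandas 2.3.3, scipy 1.17.1 and matplotlib 3.10.9.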

Additional observations from a re-analysis of the deposited data

How the results depend on the processing

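Of the 31 genes called with OSCAR overexpression, 30 kept direction and call in every alternative that could be run, and 1, *Bmpr1b*, did not. *Gdf10* could not be fitted when 10 counts were required throughout. Of the 16 genes called with 5-ASA, 7 kept theirs, and of the 36 called between 5-ASA-treated and Ad-Control cells, 31 did. Calls were also gained, by 6 of the 14 genes not called with OSCAR and by 3 of the 29 not called with 5-ASA. With OSCAR these were *Smad3* in 6 of 19 settings, *Inhbb* in 5, *Smad2* and *Tgfb2* in 2 each, and *Nog* and *Tgfbr1* in 1 each. The count of genes higher with 5-ASA was 5 by limma on log2(TPM + 0.1) and 5 on log2(TPM + 1), against 11 from counts. TPM carry no TMM scaling. In these fits the median log2 fold change with 5-ASA over all genes tested was -0.097 and -0.080, against -0.0044 from counts. In the 2 fits of TPM, the log2 fold change of *Bmp3* with 5-ASA turned to -0.015 and -0.012. The log2 fold changes of 5-ASA-treated against Ad-Control cells turned to -0.25 and -0.24 for *Smad2* and to -0.15 and -0.15 for *Smad3*. Limma called *Smad2* (adjusted p = 0.0036 and 0.0037) and *Smad3* (adjusted p = 0.0465 and 0.0467) lower there, while neither gene was called from counts. RSEM's effective length, by which counts are divided in TPM, was 14.1% larger for *Smad2* and 7.04% larger for *Smad3* in Ad-OSCAR than in Ad-Control cells, and 10.2% larger for *Bmp3* with 5-ASA than without. Leaving out 1 culture at a time, the count of genes lower with 5-ASA ranged from 2 to 5. With estimated counts in place of TPM, the difference in share between Ad-OSCAR and Ad-Control cells was 22.5 percentage points for *Tgfb1*, -1.24 for *Tgfb2*, -21.3 for *Tgfb3*, -2.03 for *Inha*, 7.22 for *Inhba* and -5.19 for *Inhbb*, and that of *Tgfb3* with 5-ASA was -0.22. In these shares, gene length enters only 1 of the 2 scales. The replicate numbers 1 to 3 share only a number between groups, and with the replicate number as a block 16 genes were higher and 15 lower with OSCAR, and 8 were higher and 4 lower with 5-ASA. The 5-ASA calls of *Acvr1*, *Bmp3*, *Smad1* and *Gdf5* were lost under the block. Depth limits *Gdf10*, *Bmp7* and *Chrdl2*, which lay near or under 1 CPM in Ad-OSCAR cells.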

Other observations

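Ratios between a ligand and its antagonist or partner were formed after the values had been seen, and they were not tested. They are means ± SD over 3 cultures of ratios of TPM. *Grem1* over the summed *Bmp2*, *Bmp4* and *Bmp7*, the ligands gremlin 1 binds, was 0.734 ± 0.00696 in Ad-Control, 6.28 ± 0.229 in Ad-OSCAR and 4.55 ± 0.472 in 5-ASA-treated cells. *Inhba* over *Fst*, the gene of its antagonist follistatin, was 0.536 ± 0.0645, 3.63 ± 0.345 and 2.7 ± 0.234. The type II receptor *Tgfbr2* over the type I receptor *Tgfbr1* was 12.1 ± 0.829, 5.42 ± 0.445 and 6.73 ± 0.733. In each of these 3 ratios, the 5-ASA-treated mean lay between the other means. *Smad7* over *Smad6* was 0.657 ± 0.122 in Ad-Control cells and 1.88 ± 0.177 in Ad-OSCAR cells, and with 5-ASA it was 1.92 ± 0.244.

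Of the ligands outside the 46 genes, 18 were read and 3 could be tested. *Gdf15*, a stress-induced member of the family, had a log2 fold change of 1.26 with OSCAR, and *Gdf11* had 0.60. Of the further receptors and co-receptors, *Rgma*, a co-receptor for BMPs, fell by 1.40 on the log2 scale with OSCAR and rose by 0.29 with 5-ASA, while the related *Rgmb* rose by 0.57 with OSCAR. The 4 changes with OSCAR passed edgeR's test at an adjusted p below 0.05, as did the rise of *Gdf11* with 5-ASA (0.23).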
